A study of Homo sapiens with 6 samples.

Results

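KO52 cells that expressed a dominant negative FOS peptide (dnFOS) were compared with KO52 cells that carried the empty vector (EV). The comparison takes the 2 libraries titled dnFOS and the 2 titled EV, which are 4 of the 6 libraries of the series. The remaining 2 libraries carried dnCEBP, the matching inhibitor of C/EBP proteins, and were used to estimate the spread and, for named genes, as a second reference. KO52 is an established acute myeloid leukemia (AML) line with mutations on both CEBPA alleles, which all groups therefore shared. All groups also shared a lentiviral vector switched on by doxycycline and sorting for GFP, which the empty vector expressed too. The labels name 1 cell line and no separate clones or cultures, so p-values measure the spread between these libraries, which may be technical. The length of the dnFOS induction was not found in the sources used here, and the counts do not measure the peptide itself.

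AP-1 is a family of dimeric transcription factors made of FOS, JUN, ATF and related proteins, which join through a leucine zipper and contact DNA through a neighbouring basic region. A dominant negative FOS peptide keeps the zipper and lacks a working DNA contact, so that a dimer holding it cannot sit on an AP-1 site. In myeloid cells AP-1 is best known for relaying signals from growth factor, cytokine and stress receptors to genes of inflammation, adhesion and survival.

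The dnFOS libraries were shallower, with total counts of 14583615 and 9862994 against 24479677 and 22056069 in EV. Counts of a gene given below are raw and not scaled for this difference. Their ratio therefore overstates a fall in dnFOS and understates a rise. A count of 3, taken as the floor, was 0.195 and 0.290 CPM (the count scaled to the TMM-adjusted size of the library) in dnFOS and 0.126 and 0.137 CPM in EV, and such floors cover counting error only. The marker sums that follow were scaled to library totals alone, without the TMM factors, which were 0.975 and 0.991 in EV and 1.054 and 1.05 in dnFOS. With those factors the EV sums would be higher and the dnFOS sums lower. The summed level of 10 myeloid leukemia markers was 1363 and 1309 CPM in EV and 1218 and 1230 in dnFOS, and all 10 were detected. The summed level of 10 erythroid markers stayed between 1.12 and 3.94 CPM and that of 7 stroma markers between 0.480 and 0.735 CPM in the 4 libraries, with 3 of each list at 0 throughout. The summed level of 8 epithelial and kidney line markers was 116.2 and 102.6 CPM in EV and 107.0 and 108.0 CPM in dnFOS, with 4 tested and 1 at 0 in all 4 libraries. The summed level of 7 T cell markers was 121.4 and 116.6 CPM in EV and 111.8 and 96.6 CPM in dnFOS, with 2 of the 7 tested. That of 7 B cell markers was 19 and 15.9 CPM against 15.0 and 12.0 CPM, with 2 tested and 3 at 0 in all 4 libraries. The summed level of 7 megakaryocyte markers was 190.1 and 182.3 CPM in EV and 119.3 and 107.9 CPM in dnFOS, with 3 of the 7 tested and 1 at 0 in all 4 libraries, and the part of these cell types in the results below was not tested. All libraries are bulk RNA, so that fewer cells of a type and less RNA per cell cannot be told apart.

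Of 15395 genes tested with edgeR's quasi-likelihood test, 2309 (15.0%) were called at a Benjamini-Hochberg adjusted p under 0.05. These were 1115 higher (7.24%) and 1194 lower (7.76%) in dnFOS. Most of the changes were small, with 2038 of the called genes under 2-fold and a median absolute log2 fold change of 0.49. At least 2-fold changes were called for 93 higher genes (0.604%) and 178 lower genes (1.16%). Scaling by library totals alone moved the split of calls from 48.3% to 73.8% higher and shifted the median over all tested genes by 0.10 on the log2 scale. The calls also depended on single libraries, with 972 genes called without dnFOS replicate 2 and 1059 without EV replicate 1, though 2330 without dnFOS replicate 1.

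The calls followed base composition. In the quintile of genes with the lowest GC content, 605 were called higher and 64 lower, and in the quintile with the highest GC content 13 were called higher and 452 lower. The median difference of dnFOS replicate 1 from the EV mean, in log2(CPM + 0.5), ran from 0.14 in the lowest to -0.15 in the highest quintile, and that of replicate 2 from 0.27 to -0.26. The 2 EV libraries differed by a median of -0.04 and 0.06 in the same quintiles. After removal of a smooth trend on GC content and length from each library, 2017 genes were called, 785 higher and 1232 lower, and 1377 of the 2309 were called again in the same direction. The count of calls in a gene group is therefore given as fitted and again with this trend removed. The part that composition plays in a single gene's change was not tested.

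**Figure D1:**
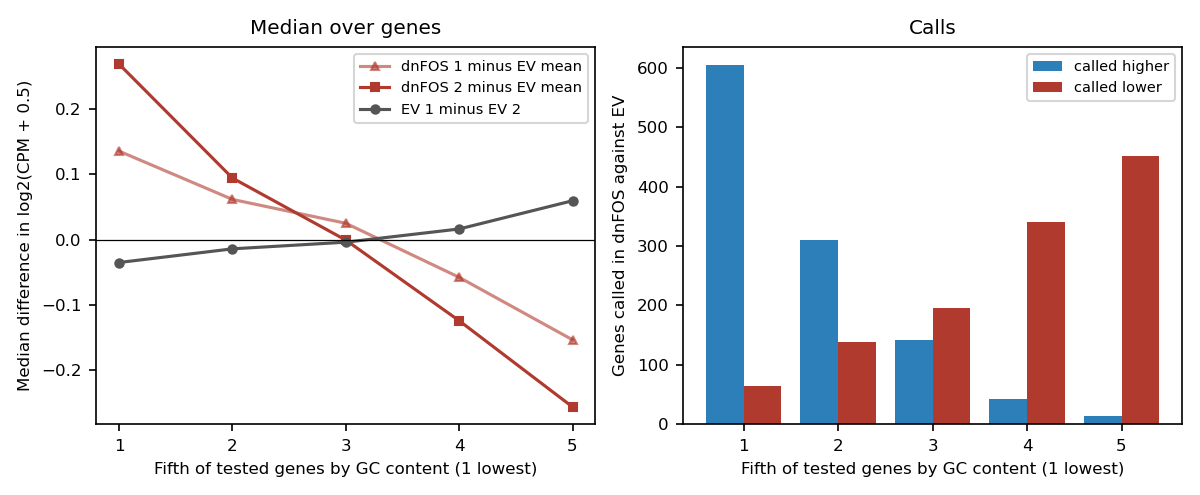
Left, the median difference in log2(CPM + 0.5) over the genes of each quintile of GC content, for each dnFOS library minus the mean of both EV libraries and for EV replicate 1 minus EV replicate 2. Right, the number of genes called higher and lower in dnFOS per quintile. Both dnFOS libraries fall from left to right, and calls move from 605 higher and 64 lower to 13 higher and 452 lower.

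Promoters were searched for the AP-1 letters TGACTCA on both strands, in windows of 250 bases before to 50 after each RefSeq start (GRCh38.p14). A window was matched for 10775 of the 15395 genes. The letters stood in 17 of 121 windows (14.0%) of genes at least 2-fold lower in dnFOS and in 2 of 54 windows (3.70%) of genes at least 2-fold higher. Among all tested genes the share was 2.98% (321 windows), and among all 27305 windows 4.92%. Over all called genes the shares lay closer together, at 4.42% of 928 lower and 2.15% of 884 higher genes. The CRE letters TGACGTCA, which do not contain the AP-1 letters, stood in 0.826% of the windows at least 2-fold lower and 3.32% of all tested. The C/EBP letters TTGCGCAA and the C/EBP:AP-1 letters TGTTGCAA stood in none of the 121 windows, and the C/EBP:ATF letters TGATGCAA in 2. The median GC content of the windows was 63.3% for genes at least 2-fold lower and 65.0% for all tested. The AP-1 share of genes at least 2-fold lower ran from 9.60% to 16.1% when the set was taken from the other settings, and was 13.4% with the GC trend removed.

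**Figure D2:**
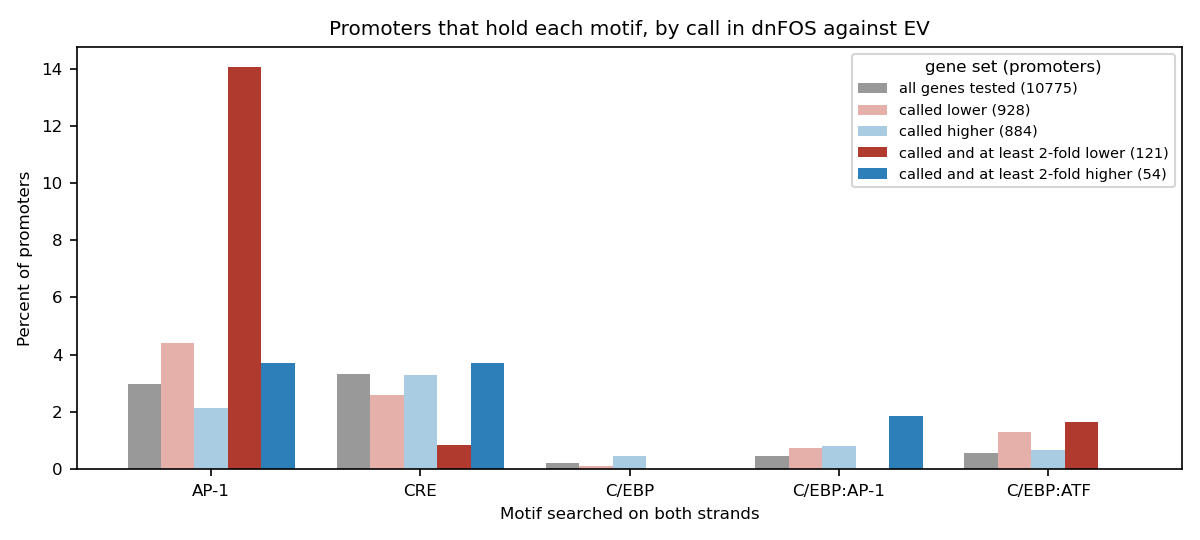
The percent of promoter windows that hold each of 5 motifs on either strand, for all tested genes and for genes called lower or higher in dnFOS, with the number of windows in the legend. The AP-1 bar of genes at least 2-fold lower (14.0%) stands above the other bars, which lie at or below 4.42%.

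The 17 genes were CXCL8, ENO2, DDIT3, NR5A2, LAT, VEPH1, UCN2, LUCAT1, SLITRK6, YPEL4, BBC3, N4BP3, COLQ, CEBPE, HSPA6, SLC3A2 and FAM129B, chosen for the motif after their values were seen. They range from a chemokine to a glycolytic enzyme and a stress factor. The stretch around the letters touches no GENCODE exon in CXCL8, NR5A2, HSPA6, COLQ, UCN2 and FAM129B. For the first 4 the letters are shown with up to 30 bases on each side. The stretches are on the strand of the gene and 5′ to 3′, with the motif in capitals. Their positions are chr4:73740402-73740468 for CXCL8, chr1:200027522-200027588 for NR5A2, chr1:161524371-161524437 for HSPA6 and chr3:15498939-15499005 for COLQ (GRCh38.p14). CXCL8 and NR5A2 lie on the plus strand, as does HSPA6, and COLQ lies on the minus strand.
CXCL8: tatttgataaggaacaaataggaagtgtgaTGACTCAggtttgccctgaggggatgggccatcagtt
NR5A2: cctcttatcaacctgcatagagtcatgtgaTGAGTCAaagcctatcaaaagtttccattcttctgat
HSPA6: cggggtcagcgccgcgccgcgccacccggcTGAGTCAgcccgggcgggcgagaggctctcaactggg
COLQ: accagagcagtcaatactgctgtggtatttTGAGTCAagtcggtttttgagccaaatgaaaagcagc

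The motif began 137 bases before the RefSeq start in CXCL8, 158 in NR5A2, 139 in HSPA6, whose window holds a further match at 244, and 103 in COLQ. The count of COLQ, which encodes the collagen tail of acetylcholinesterase, was 92 and 64 in EV and 21 and 12 in dnFOS. HSPA6, an inducible heat shock protein, had 131 and 92 counts in EV against 42 and 15 in dnFOS, and lost its call under 2 other settings. The log2 fold changes of COLQ and HSPA6 were -1.41 and -1.15. A match is a description of letters in a window, and does not show that AP-1 bound there in KO52 cells.

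Part of the AP-1 family was itself lower. Of 10 tested, 3 were lower (30.0%, against 7.76% of all genes) and none was higher, and the list's median log2 fold change was -0.01 against 0.00 for all genes. That median was above 0 with library totals alone and with the GC trend removed, where 1 member was called. FOS was at 22.2 and 29.1 CPM in EV and at 30.9 and 26.0 CPM in dnFOS, overlapping ranges. JUN was at 7.89 and 8.88 CPM in EV and 10.8 and 10.9 CPM in dnFOS, and its log2 fold change of 0.37 was not called (edgeR adjusted p = 0.23). JUND stood at 22.1 and 20.5 CPM in EV and 19.1 and 21.4 CPM in dnFOS. FOSL2 was at 41.4 and 42.0 CPM in EV and 40.4 and 46.9 CPM in dnFOS, and FOSB and FOSL1 also overlapped between the groups. JUNB, an AP-1 partner that cytokines induce, was at 12.4 and 12.7 CPM in EV and 6.77 and 8.70 CPM in dnFOS, and it was lower at -0.71 ± 0.19 (log2 fold change and SE; edgeR adjusted p = 0.0105). BATF was also lower, at -0.53 ± 0.17 (edgeR adjusted p = 0.0279). Neither JUNB nor BATF was called with the GC trend removed, at edgeR adjusted p of 0.127 and 0.199. Counting that fit, JUNB lost its call under 2 other settings and BATF under 5. ATF3, a stress-induced member, had 59 and 39 counts in EV against 8 and 11 in dnFOS and stayed called with the trend removed (edgeR adjusted p = 0.0288), though not with limma-voom or without dnFOS replicate 1 or EV replicate 1. The log2 fold change of ATF3 was -1.49. JDP2 was not called, at -0.51 in log2 fold change.

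Among protein-coding genes above 5 CPM whose libraries separated, 53 were at least 2-fold lower and 17 at least 2-fold higher. The 10 largest falls held a chemokine, products of eosinophils and mast cells, hypoxia-response genes and a stress factor. The 10 largest rises held a myosin, a phosphatase, a channel subunit and zinc finger genes. Each group has 2 libraries. An error given beside a log2 fold change is a standard error derived from its test, as the size of the change over the square root of the F statistic. Separation alone is common with 2 libraries a group, since 28.3% of all tested genes had both dnFOS libraries above both EV libraries and 28.4% had both below.

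CLC, the Charcot-Leyden crystal protein of eosinophils and basophils (ENSG00000105205; GRCh38 chromosome 19, 39731250 to 39738028), was at 10.9 and 10.1 CPM in EV and 0.651 and 0.967 CPM in dnFOS. CXCL8, the neutrophil-attracting chemokine interleukin 8 (ENSG00000169429; chromosome 4, 73740506 to 73743716), was at 249 and 261 CPM in EV and 46.6 and 51.9 CPM in dnFOS. Both dnFOS libraries lay far below both EV libraries for these genes, and the log2 fold changes were -3.74 ± 0.30 and -2.38 ± 0.09 (SE; edgeR adjusted p = 3.08e-10 and 1.27e-17). NR5A2, an orphan nuclear receptor (ENSG00000116833; chromosome 1, 200027602 to 200177424), was at 11.1 and 10.0 CPM in EV and 3.65 and 3.09 CPM in dnFOS. CATSPER1, a sperm calcium channel subunit, was at 9.94 and 9.52 CPM in EV and 3.13 and 2.90 CPM in dnFOS. CNN3, an actin-binding calponin, was at 11.2 and 10.2 CPM against 3.78 and 3.96 CPM. The log2 fold changes of NR5A2, CATSPER1 and CNN3 were -1.63, -1.68 and -1.47 with edgeR adjusted p of 1.87e-06, 2.28e-06 and 1.95e-05. HIST1H4J, a histone gene with near-identical copies and so uncertain, varied most within a group among the 10 falls, at 24.0 and 14.5 CPM in EV and 6.77 and 6.96 CPM in dnFOS.

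MYO16, an unconventional myosin (ENSG00000041515; chromosome 13, 108596152 to 109208007), rose most among these genes, from 3.48 and 2.52 CPM in EV to 11.2 and 9.67 CPM in dnFOS. EML5, a microtubule-associated protein, rose from 3.86 and 6.04 CPM to 15.4 and 17.4 CPM, and the zinc finger gene ZNF462 from 4.95 and 7.28 CPM to 16.5 and 19.3 CPM. Their log2 fold changes were 1.80 ± 0.23, 1.73 ± 0.21 and 1.55 ± 0.20 (SE; edgeR adjusted p from 1.03e-06 to 2.16e-06). MARCKS, a membrane substrate of protein kinase C, rose from 6.00 and 7.60 CPM to 16.1 and 23.0 CPM. DUSP4, a nuclear phosphatase that switches off ERK, rose from 3.23 and 3.07 CPM to 8.53 and 8.60 CPM (log2 fold change 1.44 ± 0.24 SE; edgeR adjusted p = 0.000115). LRRC8C, a subunit of the volume-regulated anion channel, rose from 12.3 and 10.4 CPM to 29.3 and 25.6 CPM. UBE2D1, a ubiquitin-conjugating enzyme, rose by 1.29 on the log2 scale, or 0.71 with the GC trend removed. FAM241A and ZBTB8A, at 1.32 and 1.26, completed the rises outside the mitochondrial genome, and ZBTB8A lost its call under 1 other setting.

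**Figure D3:**
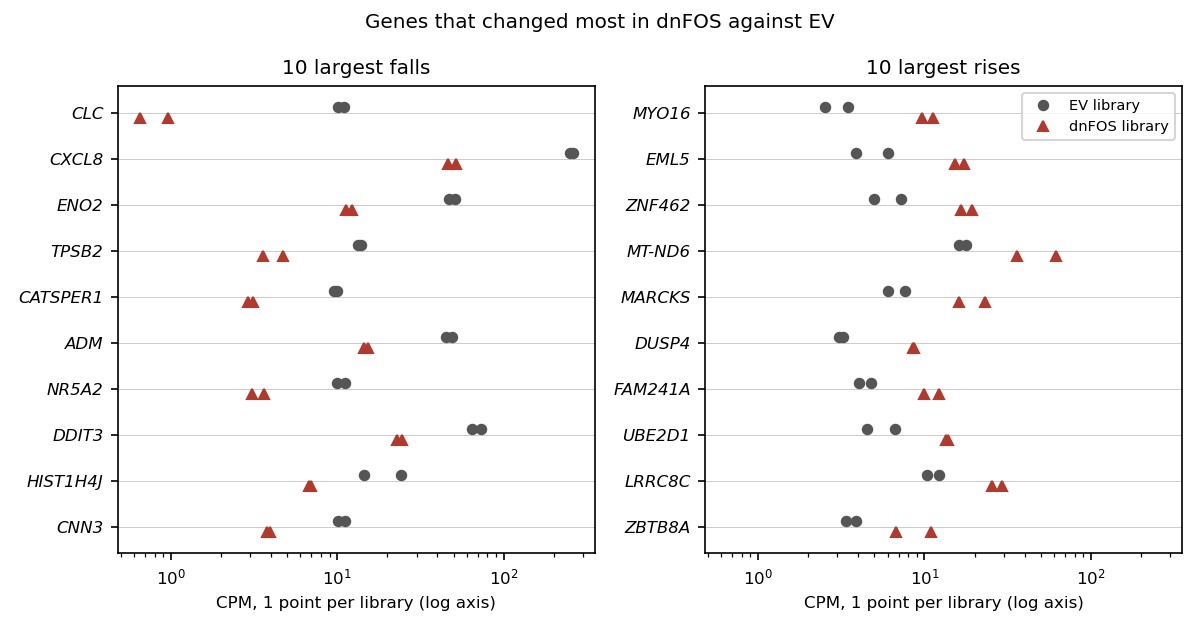
CPM on a log axis for the 10 largest falls and 10 largest rises, with 1 point per library (circles EV, triangles dnFOS). The 2 dnFOS points lie on one side of the 2 EV points for each gene, and the widest gap is that of CLC, at 10.9 and 10.1 CPM in EV and 0.651 and 0.967 CPM in dnFOS.

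Genes were then grouped by function. The groups were described by how many tested members were called in each direction and by the median log2 fold change, to be read against the 7.24% higher, 7.76% lower and the median of 0.00 over all tested genes. Members named beyond the 4 of largest change in a group were chosen after their values were seen.

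Several chemokine ligands fell. Of 11 tested, 6 were lower, CXCL8 among them, and none higher, with a median log2 fold change of -0.99 (-0.95 with the GC trend removed, also 6 lower), and 5 or 6 were lower without any 1 library. CCL3, which attracts monocytes and lymphocytes, had 178 and 133 counts in EV against 30 and 14 in dnFOS. CCL3L1, its near-identical copy, had 901 and 857 counts in EV against 233 and 135 in dnFOS, and CCL4L2 had 277 and 213 against 58 and 50. The split of reads between these copies is uncertain, but each was lower, with log2 fold changes of -2.0, -1.44 and -1.33 (edgeR adjusted p = 1.09e-05, 4.81e-09 and 5.81e-05). CCL2, the monocyte chemoattractant, and CXCL2 were lower, at -1.01 and -0.88 in log2 fold change. CCL28 was at 337 and 308 counts in EV against 211 and 158 in dnFOS, a log2 fold change of 0.03. Among 16 chemoattractant receptors, 3 were lower in both fits. CXCR4, the receptor that holds blasts in the marrow, was at 43.8 and 37.8 CPM in EV and 24.7 and 21.5 CPM in dnFOS (log2 fold change -0.82 ± 0.12 SE; edgeR adjusted p = 4.35e-05).

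Cytokine, prostaglandin and immediate early genes were also lower in part. Among 28 inflammatory cytokines and NF-kappaB feedback genes, 8 were lower and 1 higher (median -0.45, or 7 and 1 and a median of -0.26 with the trend removed). OSM, an interleukin 6 family cytokine, was at 61.2 and 51.3 CPM in EV and 30.4 and 27.1 CPM in dnFOS. TNFAIP3, which limits NF-kappaB signaling, and the inhibitor NFKBIB were lower, at -0.89 and -0.87 in log2 fold change, and NFKBIB was not called with the trend removed (edgeR adjusted p = 0.0795). TNFSF14, a ligand of the tumour necrosis factor family with an AP-1 match in its promoter, was the 1 member that rose, from 6.63 and 7.92 CPM to 13.9 and 13.2 CPM (log2 fold change 0.91, edgeR adjusted p = 0.00105). Of 15 prostaglandin and leukotriene genes, 5 were lower and 1 higher (6 and 1 with the trend removed). PTGS2, the inducible cyclooxygenase, was at 10.7 and 12.5 CPM in EV and 5.21 and 6.28 CPM in dnFOS, and ALOX5AP, which leukotriene synthesis needs, was lower, at -0.90 in log2 fold change. HPGD, which degrades prostaglandins, was higher, at 8.14 and 8.93 CPM against 12.3 and 15.5 CPM.

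Among 26 immediate early genes beyond AP-1, 8 were lower and 1 higher in both fits, with a median of -0.38, or -0.32 with the trend removed. The nuclear receptors NR4A1 and NR4A2 were lower, at -1.07 and -1.16 in log2 fold change (edgeR adjusted p = 2.46e-05 and 0.00137). EGR1, a zinc finger factor induced by growth signals, had 419 and 369 raw counts in EV against 128 and 111 in the shallower dnFOS libraries. EGR2 had 59 and 65 counts in EV against 19 and 15 in dnFOS, a log2 fold change of -1.03. The call of EGR2 was lost under 9 other settings. MYC was not called, at 5547 and 4701 counts in EV against 3319 and 2086 in dnFOS, a log2 fold change of -0.10. Of 19 textbook AP-1 targets of matrix and invasion, 8 were lower and none higher, with a median of -0.45 (6 lower with the trend removed, and 4 without EV replicate 1). TIMP1, an inhibitor of matrix proteases, was at 136 and 118 CPM in EV and 78.4 and 75.1 CPM in dnFOS. PLAUR, the urokinase receptor, was lower, at -0.60 in log2 fold change, and MMP9 had 30 and 24 counts in EV against 1 and 5 in dnFOS, a call that 5 other settings did not make.

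Most genes of glycolysis and the hypoxia response fell. Of 32 tested, 24 were lower (75.0%), the highest share among the gene groups with at least 10 tested, and none was higher, with a median log2 fold change of -0.47 (-0.44 and again 24 lower with the GC trend removed). Fits without 1 library called 18 to 23 of them lower. ENO2, a glycolytic enolase (ENSG00000111674; chromosome 12, 6913745 to 6923698), was at 50.9 and 46.9 CPM in EV and 11.3 and 12.3 CPM in dnFOS. ADM, the hypoxia-induced peptide adrenomedullin (ENSG00000148926; chromosome 11, 10304680 to 10307397), was at 49.0 and 44.8 CPM in EV and 15.2 and 14.5 CPM in dnFOS. SLC2A3, the glucose transporter GLUT3 (ENSG00000059804; chromosome 12, 7919230 to 7936275), was at 306 and 283 CPM in EV and 146 and 144 CPM in dnFOS. The libraries of the groups stood well apart in all 3, and the log2 fold changes were -2.06 ± 0.13, -1.65 ± 0.12 and -1.02 ± 0.09 (SE; edgeR adjusted p = 1.8e-12, 9.47e-11 and 1.17e-09). ANKRD37, a hypoxia-induced ankyrin protein, fell by 1.27 on the log2 scale.

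Abundant enzymes along the glycolytic chain were lower by less. GAPDH had 120928 and 101824 counts in EV against 46337 and 27239 in dnFOS, a log2 fold change of -0.78. In the order of their reactions, the log2 fold change was -0.60 for GPI, -0.84 for ALDOA, -0.51 for TPI1, -0.36 for PGK1, -0.58 for ENO1, -0.40 for PKM and -0.26 for LDHA. The hypoxia genes NDRG1 at -1.02 and VEGFA, the endothelial growth factor, at -0.53 were called as well. HIF1A, the factor that drives the hypoxia response, was not called, with 1854 and 1413 counts in EV against 1002 and 739 in dnFOS (log2 fold change -0.06). BNIP3L at 0.03 and HK2 at -0.19 were also not called, and CA9 and EGLN3 did not pass the filter on low counts.

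Most genes of the integrated stress response also fell. This pathway slows translation under amino acid or endoplasmic reticulum stress and raises ATF4 and its targets. Of 36 tested genes, 23 were lower and none was higher, with a median log2 fold change of -0.43 (-0.44 and 24 lower with the GC trend removed). Without EV replicate 1 the count was 15, and 20 without any other 1 library. DDIT3, the stress factor CHOP (ENSG00000175197; chromosome 12, 57516588 to 57521737), was at 73.0 and 64.3 CPM in EV and 24.6 and 22.7 CPM in dnFOS. PPP1R15A, which restores translation, was at 81.8 and 86.6 CPM in EV and 33.8 and 33.0 CPM in dnFOS (log2 fold change -1.33 ± 0.10 SE; edgeR adjusted p = 8.5e-11). CHAC1, which degrades glutathione, had 146 and 59 counts in EV against 26 and 10 in dnFOS, with EV libraries that differed widely, and was not called without EV replicate 1.

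ATF4 itself was lower, at -0.56 in log2 fold change, with 10389 and 9027 counts in EV against 4592 and 2862 in dnFOS. Its targets TRIB3 at -1.17, SLC3A2 at -1.08 and DDIT4 at -0.99 were lower by more. Of 7 cytosolic tRNA synthetases in the list, 6 were lower, from WARS at -1.24 and AARS at -0.79 to GARS at -0.34, and NARS was not called at -0.07. Serine and one-carbon enzymes were lower by less, with SHMT2 at -0.48, MTHFD2 at -0.39 and PHGDH at -0.35. ASNS, a classic ATF4 target, was scarcely expressed, at 46 and 65 counts in EV against 27 and 29 in dnFOS, and was not called.

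**Figure D4:**
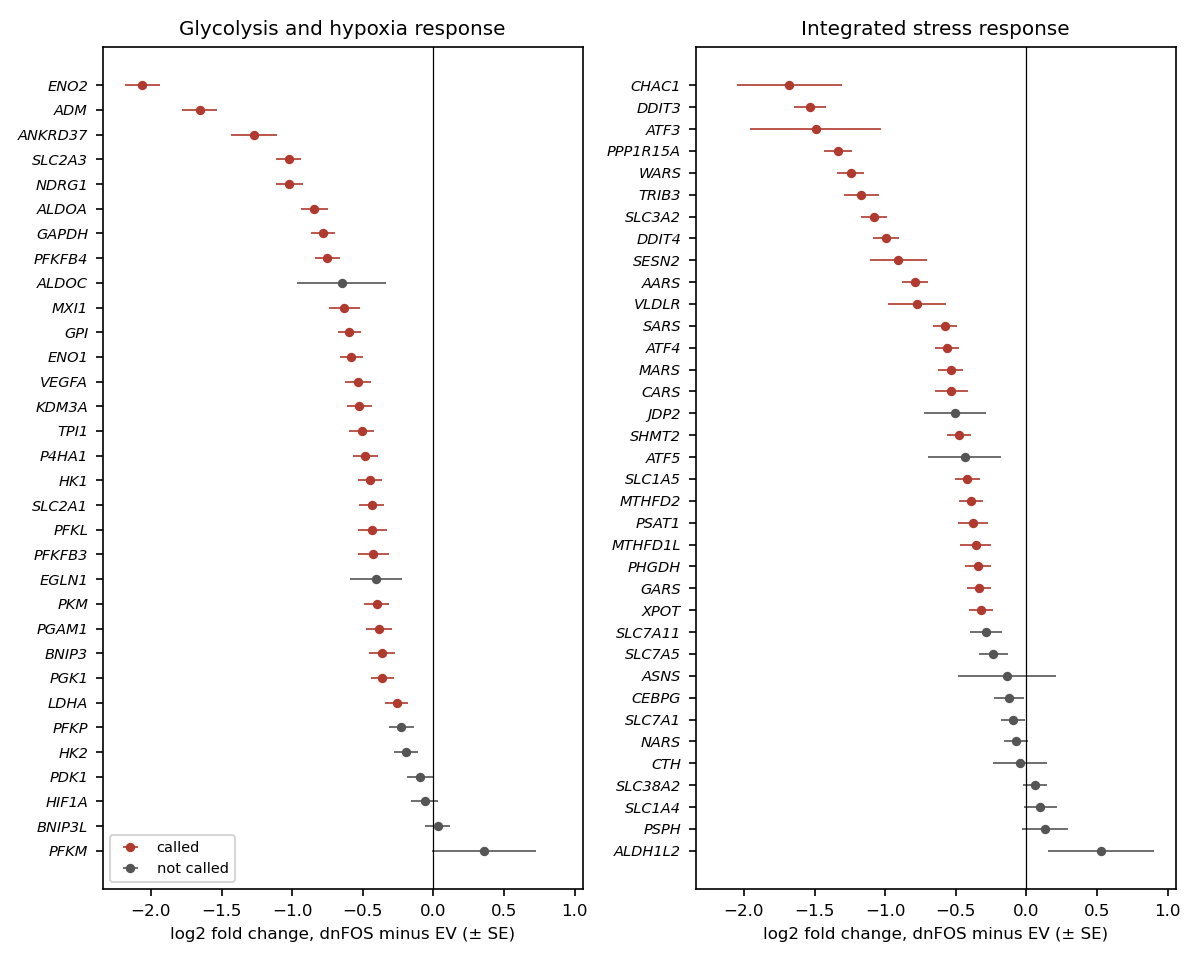
Log2 fold change (dnFOS minus EV) with its standard error for the tested genes of glycolysis and the hypoxia response (32) and of the integrated stress response (36), called genes in red. Called genes lie left of 0 in both panels, from ENO2 at -2.06 to LDHA at -0.26 and from CHAC1 at -1.68 to XPOT at -0.32.

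Protein-folding and antioxidant genes moved in part. Of 19 endoplasmic reticulum chaperone genes, 7 were lower (7 lower and 1 higher with the trend removed), with HSPA5, the chaperone BiP, at 155 and 172 CPM in EV and 104 and 108 CPM in dnFOS, and HSP90B1 at -0.51 in log2 fold change. Only 3 were called without dnFOS replicate 2 and 4 without either EV library. Of 19 heat shock genes, 7 were lower (6 with the trend removed), among them the near-identical and so uncertain HSPA1A and HSPA1B at -0.69 and -0.50, the latter not called with the trend removed (edgeR adjusted p = 0.108). Among 26 NRF2 and ferritin genes, 7 were lower and 3 higher (9 and 3 with the trend removed). SQSTM1, an autophagy receptor, was at 96.8 and 89.9 CPM in EV and 52.8 and 50.4 CPM in dnFOS, and the ferritin light chain FTL was lower, at -0.61 in log2 fold change. GCLM and GCLC, subunits of the enzyme that starts glutathione synthesis, were higher by 0.71 and 0.44.

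Most genes of eosinophils, basophils and mast cells fell, with 13 of 20 lower, 1 higher and a median log2 fold change of -0.93 (12 lower and a median of -0.89 with the GC trend removed). Fits without 1 library called 9 to 12 lower, and DESeq2 called 9. RNASE3, the eosinophil cationic protein, had 43 and 38 counts in EV against 0 in both dnFOS libraries, at least 7.30-fold lower against the mean floor of 3 counts per dnFOS library (edgeR adjusted p = 0.000102). RNASE2, its close relative, had 261 and 153 raw counts in EV against 77 and 41 in the shallower dnFOS libraries. The mast cell tryptase gene TPSB2 was at 13.9 and 13.4 CPM in EV and 3.58 and 4.74 CPM in dnFOS, and its near copy TPSAB1 fell from 28 and 18 counts to 1 in each dnFOS library. Reads may be split between the tryptase copies, which makes both values uncertain.

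HDC, which makes histamine, was among the more abundant members, with 7736 and 7602 counts in EV against 2444 and 1403 in dnFOS, a log2 fold change of -1.19. CPA3, a mast cell protease, was also lower, at 78.5 and 75.4 CPM in EV and 40.0 and 36.9 CPM in dnFOS. GATA1, the factor of the eosinophil, mast cell and erythroid lineages, was at 7.64 and 6.13 CPM in EV and 2.34 and 2.90 CPM in dnFOS (log2 fold change -1.41 ± 0.25 SE; edgeR adjusted p = 0.000214), while GATA2 was lower, at -0.26. KIT, at 355 and 343 counts against 258 and 136, and FCER1A, at -0.24, were not called. SLC18A2, which loads histamine into vesicles, was higher, from 4.28 and 5.22 CPM to 10.6 and 10.3 CPM (log2 fold change 1.14 ± 0.20 SE; edgeR adjusted p = 0.000272).

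Granule protein genes were lower in part, with 8 of 18 lower, 1 higher and a median of -0.56 (8 and 2 and a median of -0.40 with the trend removed). MPO, the peroxidase of primary granules, had 5700 and 4238 counts in EV against 2347 and 1448 in dnFOS, a log2 fold change of -0.56. AZU1, azurocidin, fell from 34 and 41 counts to 3 and 1, at least 6.81-fold, and PRTN3, proteinase 3, from 14 and 22 counts to 1 and 0, at least 3.29-fold against the same floor. PRTN3 lost its call under 3 other settings. CTSG was lower, at -1.07 in log2 fold change, and lost its call under 4 other settings. CST7, a cystatin of granules, at 159 and 145 CPM in EV, stood at 102 and 91.6 CPM in dnFOS. PLAC8 rose by 0.46. DESeq2 called 4 of the 18 lower, and fits without 1 library 5 to 7.

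Monocyte and phagocyte genes were divided. Of 23, 9 were lower and 3 higher, with a median of -0.58 (6 lower and 3 higher with the trend removed, and 5 lower without dnFOS replicate 2). CD36, a scavenger receptor, had 76 and 84 counts in EV against 17 and 6 in dnFOS, a log2 fold change of -1.98. FCGR2A, an Fc receptor, was at 15.8 and 19.8 CPM in EV and 9.57 and 7.93 CPM in dnFOS, and it has a near-identical relative that may share its reads. ITGAX, the integrin CD11c, was lower, at -0.61 and ITGAM, the integrin CD11b, higher by 0.91 in log2 fold change. TLR1, a receptor of bacterial lipoproteins, was higher, with 47 and 51 counts in EV against 74 and 60 in dnFOS. CD14 and CD68 did not pass the filter on low counts. Of 26 myeloid fate factors, 3 were lower and 2 higher in both fits, 19.2% in all against 15.0% of all genes. CEBPE, which drives late granulocyte maturation, was lower at -1.39 ± 0.33 (SE; edgeR adjusted p = 0.00396).

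Leukemia surface antigens and signaling genes included several of the more abundant changes. Of 21 antigens, 7 were lower and 3 higher, with 7 and 2 with the trend removed and 4 and 1 without dnFOS replicate 2. IL3RA, the interleukin 3 receptor chain CD123, was at 22.2 and 23.2 CPM in EV and 11.5 and 12.1 CPM in dnFOS (log2 fold change -0.94 ± 0.15 SE; edgeR adjusted p = 4.8e-05). CD52 and ANPEP, the myeloid antigen CD13, were lower, at -0.76 and -0.58 in log2 fold change, whereas CD34, CD33 and CD38 were not called. IL1RL1, the interleukin 33 receptor, was at 64.4 and 57.2 CPM in EV and 32.2 and 32.9 CPM in dnFOS. In the list of SRC kinases and partners 5 of 14 were lower and none higher (4 lower with the trend removed), but none of the 14 was called without EV replicate 1. SRC had 25 and 19 counts in EV and 2 in each dnFOS library, at least 3.95-fold lower, and lost its call under 4 other settings. PTPRC, the phosphatase CD45, was lower, at -0.33 in log2 fold change.

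Cytoskeletal and calcium-binding genes were lower in part. Of 28 actin, thymosin and vimentin genes, 13 were lower and 1 higher in both fits (median -0.26). LMNA, nuclear lamin A, was at 6.71 and 6.36 CPM in EV and 2.47 and 3.29 CPM in dnFOS, and MYL6, a myosin light chain, was at 259 and 236 CPM against 159 and 146 CPM. Without dnFOS replicate 2 the lower calls numbered 8 and without EV replicate 1 they numbered 7. Of 17 annexins and S100 proteins, 6 were lower (5 with the trend removed). S100A6, a calcium sensor, was at 71.6 and 63.3 CPM in EV and 31.3 and 28.1 CPM in dnFOS (log2 fold change -1.18 ± 0.10 SE; edgeR adjusted p = 1.64e-09), and ANXA2 and ANXA1 were lower, at -0.89 and -0.56.

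A few survival and G1 genes were called. Of 14 BCL2 family genes, 3 were lower and 1 higher (2 and 1 with the trend removed). BCL2, which blocks cell death, rose from 134 and 137 CPM to 179 and 199 CPM (log2 fold change 0.48 ± 0.09 SE; edgeR adjusted p = 0.000274). BCL2A1, another inhibitor of cell death, was at 29.2 and 28.7 CPM in EV and 16.7 and 14.3 CPM in dnFOS. The death-promoting BBC3 and BMF were lower, at -1.44 and -0.99 in log2 fold change, at 60 and 44 counts against 9 and 12 and at 119 and 88 counts against 41 and 18, and BBC3 was not called with the GC trend removed. Of 20 tested cyclins, kinases and kinase inhibitors of the G1 phase, 3 were lower and 1 higher (1 and 1 with the trend removed). Their median log2 fold change was 0.11, so the list did not move as a whole. CDKN1A, the cell cycle inhibitor p21, had 53 and 55 counts in EV against 9 and 12 in dnFOS. CDK6, a kinase of the G1 phase, was abundant and higher, at 850 and 869 CPM in EV and 1204 and 1382 CPM in dnFOS.

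Mitosis genes fell in part. Of 60 genes of mitosis and G2/M, 19 were lower and 2 higher (median -0.20), and with the GC trend removed 32 were lower and none higher (median -0.30). Fits without 1 library called 9 to 14 lower. PLK1, the mitotic polo kinase, was at 33.2 and 33.4 CPM in EV and 22.6 and 20.6 CPM in dnFOS, and KIF2C, a kinesin of the centromere, at 135 and 123 CPM against 89.6 and 83.3 CPM. MKI67, at 2439 and 2344 counts against 1569 and 1129, and CDK1 were not called, at 0.01 and -0.01 in log2 fold change. Of 51 S phase genes, 6 were higher and 1 lower (5 and 1 with the trend removed), 13.7% in all and close to the 15.0% of all genes, with GINS1, a subunit of the replicative helicase, at 14.9 and 13.3 CPM in EV and 22.0 and 24.2 CPM in dnFOS. Without either dnFOS replicate 2 or EV replicate 2, 2 were called higher. The histone list, with 20 of 55 lower, fell to 8 lower and 3 higher with the trend removed, and its members share reads.

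Transcription factors of stem and progenitor cells moved both ways. Of 22, 5 were higher and 3 lower (median 0.20; 5 and 1 with the trend removed). HOXA9 was at 40.5 and 42.9 CPM in EV and 54.5 and 65.5 CPM in dnFOS, and BMI1, a Polycomb protein, at 78.1 and 78.4 CPM against 105 and 138 CPM (log2 fold changes 0.52 and 0.63, edgeR adjusted p = 0.00137 and 0.00026). IKZF2 rose by 0.44 on the log2 scale. LYL1, a basic helix-loop-helix factor, fell from 147 and 124 CPM to 88.1 and 73.1 CPM. CBFB, the partner of RUNX proteins, was at 60.2 and 56.2 CPM in EV and 73.2 and 96.8 CPM in dnFOS, and lost its call without dnFOS replicate 2.

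Most protein-coding transcripts of the mitochondrial genome rose. Of 26 tested, 11 were higher and 1 lower, with a median of 0.34 (10 higher and 0.38 with the trend removed), and all 11 were among the 13 protein-coding transcripts. Without dnFOS replicate 2 or EV replicate 1 the count was 7. MT-ND5, a subunit of respiratory complex I, rose from 42.9 and 53.5 CPM to 76.7 and 106 CPM (log2 fold change 0.92 ± 0.13 SE; edgeR adjusted p = 0.000101). MT-ND6, whose transcript comes from the other strand, rose from 16.2 and 17.7 CPM to 36.2 and 61.6 CPM, with dnFOS libraries that differed widely, and lost its call under 3 other settings. MT-ATP8 overlaps MT-ATP6 in part, so reads within the overlap cannot be assigned to 1 of these genes. The mitochondrial ribosomal RNAs took 24.5% and 24.1% of all counts in EV and 24.0% and 24.8% in dnFOS, and neither was called. The 1 lower transcript was the transfer RNA MT-TT, at -1.21 in log2 fold change.

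Some nuclear genes for the same organelle were lower. Of 81 nuclear-encoded respiratory chain subunits, 23 were lower and 3 higher (median -0.17; 24 and 3 with the trend removed), and 7 were lower without dnFOS replicate 2 or EV replicate 1. NDUFA2, of complex I, was at 27.1 and 24.6 CPM in EV and 14.8 and 11.9 CPM in dnFOS. Cytosolic ribosomal protein genes were lower in 28 of 84 cases and higher in none (median -0.21; 27 lower with the trend removed), but the count was 3 without dnFOS replicate 2, 5 without EV replicate 1 and 11 with library totals alone. Such genes have many processed copies, and the counting of shared reads was not stated.

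Cholesterol and interferon genes were higher in part. Of 32 cholesterol and fatty acid genes, 8 were higher and none lower (6 and 1 with the trend removed), with a median of -0.05 that turned above 0 with library totals alone, with the GC trend removed and without dnFOS replicate 2 or EV replicate 1. MSMO1, a sterol oxidase, was at 76.7 and 77.5 CPM in EV and 112 CPM in both dnFOS libraries, and IDI1, which makes isoprenoid precursors, rose by 0.50 on the log2 scale. Without EV replicate 2 only 2 were called higher. Of 43 interferon-stimulated genes, 8 were higher and 2 lower (median 0.22; 6 and 2 with the trend removed). IFI6 was at 16.8 and 17.7 CPM in EV and 26.8 and 25.7 CPM in dnFOS, and GBP2, a guanylate-binding protein, fell from 79.8 and 73.0 CPM to 32.3 and 33.6 CPM (log2 fold change -1.21 ± 0.10 SE; edgeR adjusted p = 4.79e-10). Without EV replicate 1 the count of higher genes was 4.

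**Figure D5:**
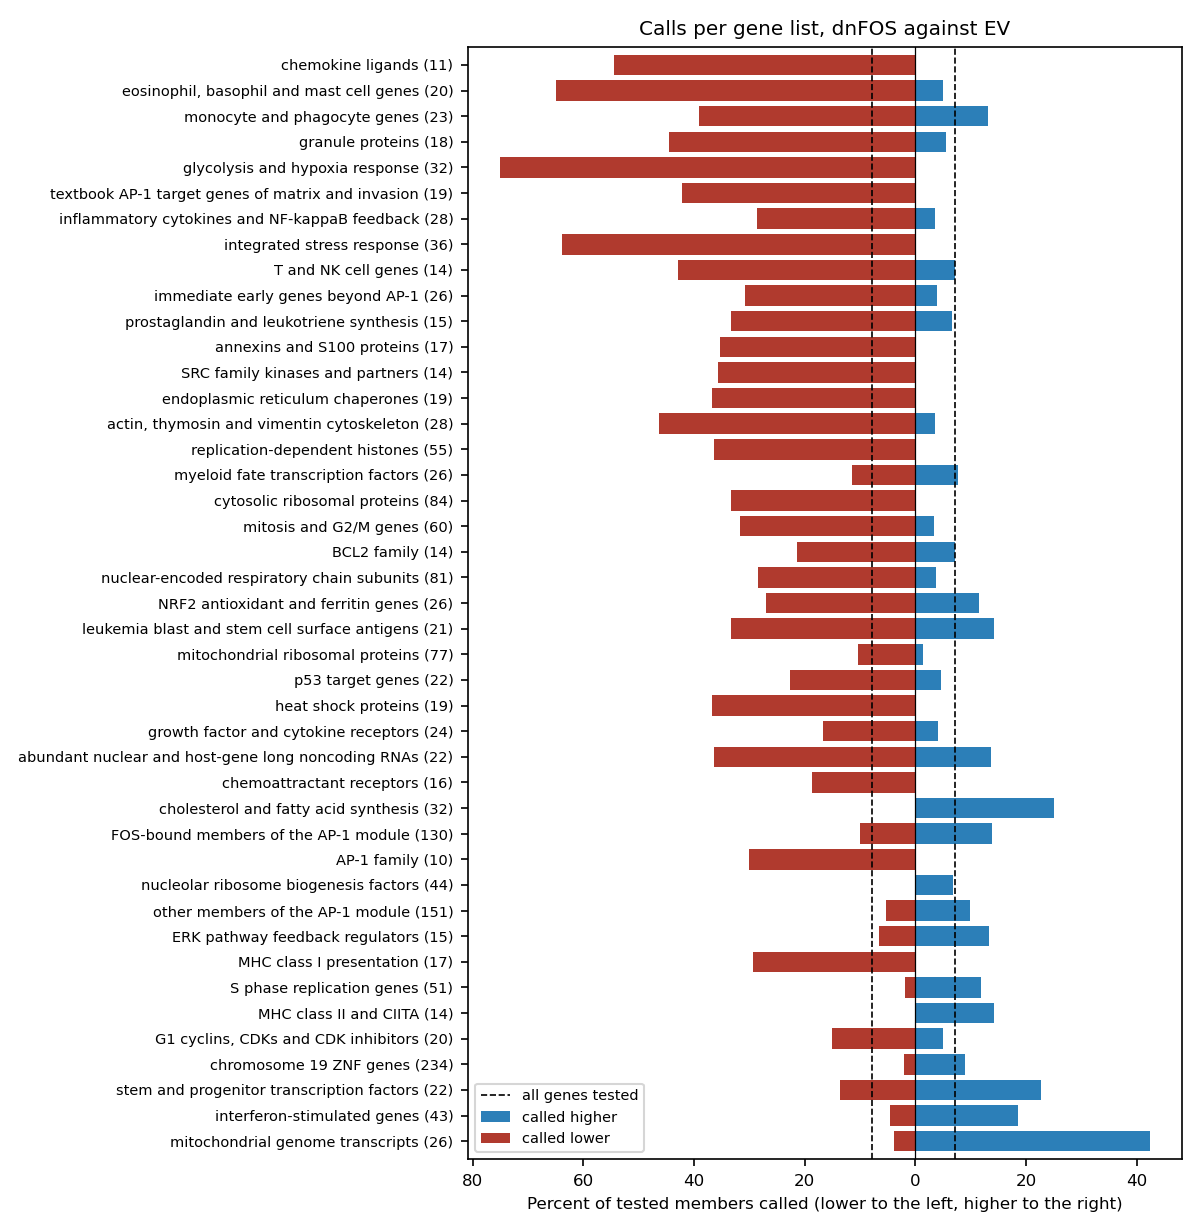
The percent of tested members called lower (left) and higher (right) in dnFOS for each gene group with at least 10 tested members, ordered by median log2 fold change, with the number tested in parentheses. Dashed lines mark the shares over all tested genes, 7.76% lower and 7.24% higher. The bars reach 75.0% lower for glycolysis and hypoxia genes.

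The AP-1 module that the study's network assigned to CEBPA-mutant AML did not move as a block. Of 130 tested members that the study lists as bound by FOS, 18 were higher and 13 lower (23.8%, median -0.03), and of 151 other tested members 15 were higher and 8 lower (15.2%, median 0.04). The share among members without FOS binding was near the 15.0% of all tested genes. With the GC trend removed, 15 and 14 of the bound and 6 and 12 of the other members were higher and lower. LMNA, SLC18A2 and WIPI1, which binds autophagosome membranes, were among the 4 bound members of largest change.

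The dnFOS libraries were also set against dnCEBP, where 2259 genes (14.7%) were called with edgeR. Of the 158 named genes called against EV, 127 were called against dnCEBP in the same direction. Both comparisons use the same dnFOS libraries, so they are not independent. Against dnCEBP, the log2 fold change of CXCL8 was -2.55, that of ENO2 -2.08 and that of DDIT3 -1.36 (edgeR adjusted p = 2.06e-18, 1.1e-12 and 6.62e-10). GZMA, a granzyme, was at -2.21 against dnCEBP and -1.08 against EV. Among those that did not pass the test against dnCEBP were CXCR4, HSPA5 and ANPEP, with differences of -0.24, -0.15 and -0.21 (edgeR adjusted p = 0.213, 0.334 and 0.118). AZU1, PRTN3, CTSG and CEBPE did not pass either (edgeR adjusted p = 0.345, 0.357, 0.775 and 0.167), while the granule gene LTF did (0.043). CTSG and CLC were also lower in dnCEBP than in EV, at -1.26 and -1.16 (edgeR adjusted p = 0.0248 and 0.00183). So, among others, were CXCR4, HSPA5 and ANPEP, at -0.57, -0.48 and -0.37 (edgeR adjusted p = 0.00926, 0.00678 and 0.0254). MYO16 was higher in both, at 1.15 in dnCEBP against EV (edgeR adjusted p = 0.00559). CD36 and NR5A2, lower in dnFOS, were higher in dnCEBP than in EV, at 1.32 and 0.69 (edgeR adjusted p = 0.00162 and 0.0227). CLC was lower still in dnFOS, at -2.58 against dnCEBP.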

How the data were processed

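Total RNA depleted of ribosomal RNA was sequenced as paired ends from KO52 cells with dnFOS, dnCEBP or EV, with 2 libraries each. The submitters' processing notes name Trimmomatic, HISAT2, featureCounts, Subread and hg38 and no version. The deposited values are raw read counts per gene, and the use of strand and the counting of multimapping reads are not given in the sources used here.

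Genes of all 6 libraries were fitted together with edgeR 4.0.16 (R 4.3.3), using TMM scaling, a minimum count of 10 in its expression filter and the robust quasi-likelihood test of dnFOS minus EV, with Benjamini-Hochberg adjustment over 15395 genes and a threshold of 0.05. Names and positions came from GENCODE 29, and promoter windows and their sequences from RefSeq (GRCh38.p14). Genes were named by rule: the AP-1 family, the 10 largest rises and falls among protein-coding genes of at least 5 CPM whose libraries separated, and up to 4 called members of each list whose share of calls was above that of all genes. Members and lists were chosen with earlier results of these data known, and the AP-1 module is the study's own. Alternatives used limma 3.58.1 (voom), DESeq2 1.42.0, other scalings and filters, libraries left out in turn, the replicate number as a block and, with mgcv 1.9.3, removal of a trend on GC content and length. The procedure was tested on simulated data. Total counts ran from 9862994 to 27663179 per library, and the dnFOS libraries were the least deep of the 4 compared. The replicate numbers are not stated to mark a shared culture or day.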

Additional observations from a re-analysis of the deposited data

How the results depend on the processing

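The counts of calls depended on which libraries entered. Leaving out 1 library gave 972 to 2330 calls, 392 to 1196 higher and 568 to 1134 lower, 160 to 316 of at least 2-fold, and 38 to 127 of these higher. The lowest total was without dnFOS replicate 2, and 1059 genes were called without EV replicate 1. Library totals alone gave 1905 higher and 676 lower calls, with 144 higher by at least 2-fold. DESeq2 gave 164 calls of at least 2-fold, 44 of them higher. Tested against a 1.5-fold change, 67 genes were called, 10 higher and 57 lower. The filters, the other scalings, limma-voom and a fit of only the 4 libraries left the total of calls within 1.5 times.

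Of the 158 named genes called, 47 were not called without dnFOS replicate 2, 41 without EV replicate 1, 25 without dnFOS replicate 1 and 22 without EV replicate 2. The number not called was 24 with the GC and length trend removed, 20 with library totals alone, 17 with limma-voom and 11 with DESeq2, which gave no adjusted p for 12 named genes. Of the 158, TFEC changed sign, at -0.090 with the trend removed. Among the uncalled AP-1 genes, the log2 fold change without 1 library ran from -0.024 (without EV replicate 1) to 0.35 for FOS, from -0.094 (without EV replicate 1) to 0.36 for FOSB, from -0.15 (without dnFOS replicate 1; -0.12 without EV replicate 1) to 0.35 for FOSL1 and from -0.045 (without dnFOS replicate 2) to 0.17 for FOSL2. JUND was at 0.023 with library totals alone, 0.0063 without dnFOS replicate 1 and 0.28 with the trend removed. The cause was not tested.

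The replicate number as a block gave 3172 calls and lost none of the 158. Same-numbered libraries did not deviate together, with correlations of 0.03 for EV and dnFOS, 0.02 for EV and dnCEBP and 0.09 for dnFOS and dnCEBP, so the numbers were not taken to pair the libraries. Medians of 34 of 46 lists were below 0, and that number stayed within 1.5 times under each of the 14 alternatives that gave it. Depth limits genes near the floor of 3 counts in the dnFOS libraries.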

Other observations

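Genes of T and NK cells were lower in 6 of 14 tested cases and higher in 1, with a median log2 fold change of -0.42, and 3 were lower with the GC trend removed. GZMA, a granzyme of killer cells, was at 17.8 and 17.0 CPM in EV and 8.92 and 7.35 CPM in dnFOS. Of 17 genes of MHC class I presentation, 5 were lower and none higher, but with the GC trend removed 4 were higher and 1 lower. Of 14 MHC class II genes, 2 were higher, or 4 with that trend removed, and none was lower. The 14.3% called as fitted was close to the 15.0% of all genes.

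Among 22 p53 target genes, 5 were lower and 1 higher (5 and 2 with the trend removed). Among 44 nucleolar factors of ribosome assembly, 3 were higher and none lower (3 and 2 with the trend removed). As fitted, 6.82% of these factors were called, below the 15.0% of all genes. Zinc finger genes of chromosome 19 were higher in 21 of 234 cases and lower in 5, a split that became 9 and 7 with the GC trend removed. The 11.1% of them called as fitted was also below the 15.0% of all genes. Of 77 mitochondrial ribosomal proteins, 8 were lower and 1 higher, or 14 and 0 with the trend removed. Their 11.7% called as fitted was below that share too. Of 22 abundant long noncoding RNAs, 8 were lower and 3 higher in both fits, with 2 to 8 lower when 1 library was left out.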
